A study of Mus musculus with 6 samples.

Results

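The activity-regulated synaptic and secreted effectors are 10 genes, Arc, Npas4, Bdnf, Homer1, Nptx2, Nrn1, Inhba, Vgf, Scg2 and Pcsk1, taken by symbol from the 24421 genes of the deposited count table. All 10 were found, and all 10 passed the filter on low counts, which left 13560 genes. They were measured in sorted nuclei of Foxp2-positive neurons of the mouse medial prefrontal cortex (mPFC), in 3 libraries labelled CFA and 3 labelled saline. CFA is complete Freund's adjuvant, an agent that causes lasting inflammatory pain. Both groups came from Foxp2-Cre mice, in which an adeno-associated virus (AAV) had been injected bilaterally to express GFP fused to a KASH domain, which holds a protein in the nuclear envelope, and tissue was taken 4 weeks after that injection. Cre was driven from Foxp2, a transcription factor gene of deep-layer corticothalamic neurons. Each library was made from 10000 nuclei, and the labels give neither the age of the mice, nor how many mice went into a library, nor the time between CFA or saline and collection.

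Neurons that fire let calcium in, and calcium-dependent kinases then switch on a set of genes within minutes to hours. Some products are transcription factors, and Npas4 is the one of these among the 10 genes here. The other effectors act at the synapse or are secreted. They remove or anchor glutamate receptors, feed back on the synapse as growth factors, or enter dense-core vesicles as peptide precursors. In the cortex these transcripts are widely used as a record of recent activity. Many of their promoters carry the cAMP response element (CRE), the site of the transcription factor CREB.

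The promoters are shown because a CRE is the feature that several of these genes are known to share. RefSeq promoter windows (GRCm38.p6, the assembly also called mm10) reached from 250 bases before to 50 bases after an annotated transcript start, and 13 such windows matched 6 of the 10 genes. Arc, Nptx2, Nrn1 and Vgf had no entry. The full CRE, TGACGTCA, was searched on both strands and was found in 2 windows, those of Scg2 and Pcsk1, against 1.79% of all 32851 promoter windows of the same length. Its core TGACG, which also lies inside the full CRE, was found in 5 windows of 5 genes, against 20.8% of all windows. The AP-1 site TGANTCA was found in 1 window, of Bdnf, against 7.81% of all, and the CArG box of serum response factor in 0 of 13, against 1.63%. A match describes letters, and no binding was measured. In the 5 windows below, each 5′ to 3′ on the strand of the gene, capitals mark the full CRE or its core on either strand.
Npas4: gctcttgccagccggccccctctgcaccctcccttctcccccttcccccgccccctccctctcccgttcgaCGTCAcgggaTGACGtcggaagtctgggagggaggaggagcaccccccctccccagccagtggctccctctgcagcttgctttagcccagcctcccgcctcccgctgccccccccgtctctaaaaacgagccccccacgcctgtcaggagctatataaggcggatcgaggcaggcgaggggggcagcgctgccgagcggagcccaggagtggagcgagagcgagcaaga
Homer1: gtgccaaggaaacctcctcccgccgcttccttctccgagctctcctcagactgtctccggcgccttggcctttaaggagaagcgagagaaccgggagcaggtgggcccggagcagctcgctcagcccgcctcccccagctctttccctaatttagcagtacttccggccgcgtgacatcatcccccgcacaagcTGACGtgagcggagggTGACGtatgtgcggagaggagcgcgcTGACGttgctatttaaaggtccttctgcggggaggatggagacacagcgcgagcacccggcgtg
Bdnf: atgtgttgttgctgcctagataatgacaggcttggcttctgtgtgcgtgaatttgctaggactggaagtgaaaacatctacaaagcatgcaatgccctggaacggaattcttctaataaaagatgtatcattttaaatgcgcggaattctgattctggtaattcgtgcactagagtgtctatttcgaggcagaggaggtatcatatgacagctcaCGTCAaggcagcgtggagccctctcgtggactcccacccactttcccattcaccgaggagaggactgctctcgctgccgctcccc
Scg2: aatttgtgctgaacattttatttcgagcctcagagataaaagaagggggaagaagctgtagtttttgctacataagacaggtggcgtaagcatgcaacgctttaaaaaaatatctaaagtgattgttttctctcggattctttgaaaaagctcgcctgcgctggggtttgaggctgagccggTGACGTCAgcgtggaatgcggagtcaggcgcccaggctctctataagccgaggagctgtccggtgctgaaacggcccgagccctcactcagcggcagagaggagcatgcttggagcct
Pcsk1: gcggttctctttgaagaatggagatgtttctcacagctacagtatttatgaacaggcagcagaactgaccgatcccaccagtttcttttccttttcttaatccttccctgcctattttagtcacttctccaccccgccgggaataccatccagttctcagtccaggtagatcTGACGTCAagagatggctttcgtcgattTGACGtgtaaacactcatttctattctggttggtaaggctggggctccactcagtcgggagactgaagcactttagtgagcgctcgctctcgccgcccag
The windows are chr19:4989922-4990221 (minus strand) for Npas4, chr13:93303507-93303806 (plus) for the first of 2 Homer1 starts, chr2:109692186-109692485 (plus) for the third of 7 Bdnf starts, chr1:79439977-79440276 (minus) for Scg2 and chr13:75089607-75089906 (plus) for Pcsk1. The full CRE began 68 bases before the start of Scg2 and 78 bases before that of Pcsk1. In Homer1, 3 cores began 56, 40 and 14 bases before the start, and in Bdnf the core began 35 bases before it. Npas4 held its cores farther out, at 179 and 169 bases.

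**Figure D1:**
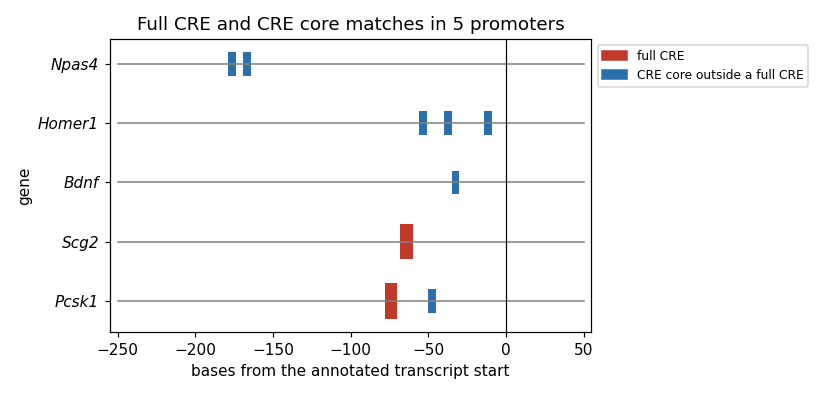
Matches to the full CRE (red) and to its core outside a full CRE (blue) in 5 promoter windows, by distance in bases from the annotated transcript start. Scg2 and Pcsk1 each hold a full CRE, 68 and 78 bases before the start.

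Total counts were 10663201 to 11850741 per CFA library and 9673038 to 11117681 per saline library. Levels down to 0.253 to 0.31 CPM (3 counts, scaled to library size) cannot be told from a count of 0, as far as counting error alone goes. CPM values were scaled by TMM, a factor per library that evens out composition. Foxp2 was present in all 6 libraries, at 24.0 to 34.9 CPM in CFA libraries and 28.3 to 43.7 CPM in saline libraries. The glutamate transporter gene Slc17a7 averaged 2280 ± 357 CPM in CFA libraries and 2140 ± 177 CPM in saline libraries (SD, n = 3 each), far above the GABA synthesis gene Gad1, at 64.9 ± 18.8 CPM in CFA libraries and 60.2 ± 12.4 CPM in saline libraries. The labels do not say that the replicates came from separate animals, and p-values therefore reflect only how these libraries vary, which may be technical.

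Transcripts of all 10 effectors were detected in every library, and for none of them was a difference between CFA and saline libraries called. Of the 10, 5 had a positive and 5 a negative log2 fold change (CFA minus saline), and 0 passed a threshold of 0.05 on the adjusted p of edgeR's quasi-likelihood test. The same test called 0% of the 13560 genes tested. At an unadjusted p under 0.05 there were also 0 members, where 3.22% of all genes tested were under it. The median log2 fold change was -0.01 over the 10 effectors and -0.001 over all genes tested. The values of the groups did not overlap for 2 of the 10 effectors, Inhba and Scg2, both lower in CFA, where 7.51% of all genes tested did not overlap. A two-sided exact permutation test on log2 CPM gave p-values of 0.3 to 0.8 for the other 8, and 3 against 3 libraries cannot go below 0.1, the value that non-overlap itself fixes for Inhba and Scg2. In bulk libraries, fewer cells of a type and less RNA per cell cannot be told apart.

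**Figure D2:**
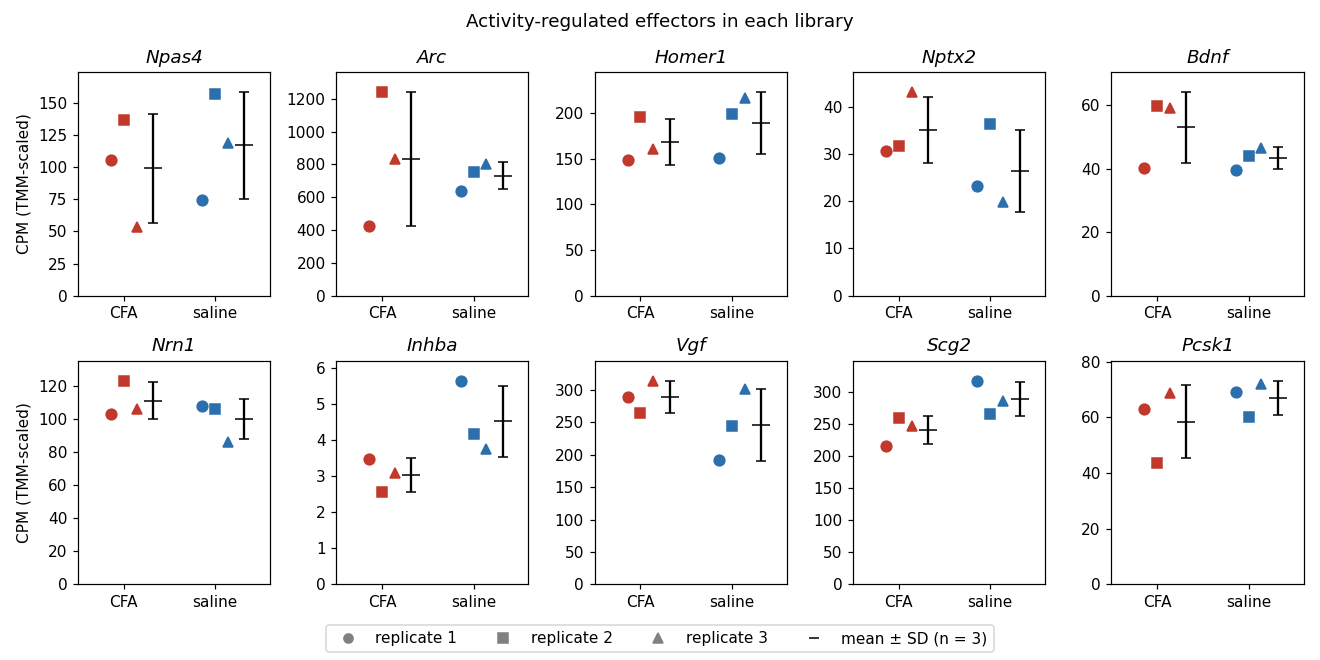
Level of each effector in CPM (TMM-scaled, linear axes from 0) in the 3 CFA (red) and 3 saline (blue) libraries, marked by replicate, with the group mean ± SD (n = 3) in black. The groups overlap for 8 of 10 genes. Arc reaches 1240 CPM in CFA replicate 2 and is at 426 CPM in CFA replicate 1.

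Levels were compared between genes as CPM per kilobase of exon, averaged over all 6 libraries. Arc was highest at 256, the 166th highest of the genes tested, followed by Scg2 at 107, Vgf at 105, Nrn1 at 64.9, Npas4 at 32.9, Homer1 at 30.1, Pcsk1 at 24.9, Nptx2 at 12.1, Bdnf at 7.18 and Inhba at 2.47. Library ranges of neighbours in this order overlapped for Scg2 and Vgf, Vgf and Nrn1, Npas4 and Homer1, Homer1 and Pcsk1, and Nptx2 and Bdnf. They did not overlap for the other 4 neighbouring pairs. Exons of alternative transcripts add to a gene's length. The models of Bdnf and Homer1 each join 12 distinct exon intervals and that of Pcsk1 joins 14. The part of this in the levels per length was not tested.

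Npas4 encodes a transcription factor that is induced by calcium influx and controls inhibitory synapses onto the neuron (chromosome 19, 4984355 to 4989971, minus strand, mm10, as are all gene positions given here). It was at 106, 137 and 53.4 CPM in CFA replicates 1, 2 and 3, against 74.2, 157 and 119 CPM in saline replicates 1, 2 and 3. CFA replicate 3 was the lowest library and saline replicate 2 the highest, and the groups overlapped. Its log2 fold change was -0.23 ± 0.31 (SE), for which edgeR's quasi-likelihood test gave an unadjusted p of 0.459 and an adjusted p of 1. Its 95% interval ran from -0.89 to 0.42. The sign turned to 0.07 without CFA replicate 3 and to 0.04 without saline replicate 2, while leaving out CFA replicate 2 gave -0.54 and leaving out saline replicate 1 gave -0.48.

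Arc encodes a postsynaptic protein that drives the removal of AMPA-type glutamate receptors from the membrane (chromosome 15, 74669081 to 74672570, minus strand). Its level was 426, 1240 and 833 CPM in CFA replicates 1, 2 and 3, and 640, 753 and 803 CPM in saline replicates 1, 2 and 3. The CFA libraries held both the lowest and the highest value, a 2.91-fold range, while the saline libraries lay between them within a 1.25-fold range. The log2 fold change was 0.19 ± 0.28 (SE), with a 95% interval of -0.42 to 0.79, and edgeR gave an unadjusted p of 0.521 and an adjusted p of 1. The log2 value was 0.50 without CFA replicate 1, -0.22 without CFA replicate 2 and 0.09 without saline replicate 1.

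Homer1 encodes a scaffold that links metabotropic glutamate receptors to the postsynaptic density, and activity induces a short form that breaks this link (chromosome 13, 93304495 to 93405129, plus strand). Counts per gene add the short and long forms together. Homer1 was at 148, 196 and 161 CPM in CFA replicates 1, 2 and 3, against 151, 199 and 216 CPM in saline replicates 1, 2 and 3. Replicate 1 was the lowest library in both groups, and the groups overlapped. A log2 fold change of -0.17 ± 0.19 (SE; 95% interval -0.57 to 0.24) went with an unadjusted p of 0.395 and an adjusted p of 1 (edgeR). Leaving out 1 library at a time gave -0.31 (without saline replicate 1) to -0.06 (without saline replicate 3), with -0.29 without CFA replicate 2 and -0.09 without CFA replicate 1.

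Nptx2 encodes a secreted pentraxin that clusters AMPA receptors at excitatory synapses onto interneurons (chromosome 5, 144545887 to 144557478, plus strand). Levels were 30.6, 31.6 and 43.1 CPM in CFA replicates 1, 2 and 3, against 23.2, 36.3 and 19.8 CPM in saline replicates 1, 2 and 3. CFA replicate 3 was the highest, and saline replicate 2 lay above the other CFA libraries. Nptx2 had the largest positive log2 fold change of the 10 genes, 0.41 ± 0.26 (SE; 95% interval -0.15 to 0.96). Its unadjusted p of 0.137 was the smallest among the 10, next to that of Scg2, and edgeR's adjusted p was 1. The log2 fold change was 0.71 without saline replicate 2 (unadjusted p of 0.0181, adjusted p of 1), and 0.24 both without CFA replicate 3 and without saline replicate 3 (unadjusted p of 0.44 and 0.364). The genes whose log2 CPM followed Nptx2 most closely over the 6 libraries, of 11372 compared, were 1110032F04Rik, Wdr91 and Sdr42e1, with Pearson coefficients of 0.992, 0.989 and 0.986. These are the highest of 11372 coefficients over only 6 points, so their size partly reflects the selection, and they are a description without a test.

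Nrn1 encodes neuritin, a membrane-anchored protein that promotes neurite growth and synapse maturation (chromosome 13, 36725622 to 36734477, minus strand). It was at 103, 123 and 106 CPM in CFA replicates 1, 2 and 3, and at 108, 106 and 85.9 CPM in saline replicates 1, 2 and 3. Only saline replicate 3 was below and CFA replicate 2 above a narrow band shared by the other 4 libraries. Between groups the log2 fold change was 0.15 ± 0.18 (SE; 95% interval -0.23 to 0.52), and edgeR gave an unadjusted p of 0.42 and an adjusted p of 1. Leaving out CFA replicate 2 gave 0.06, and leaving out saline replicate 3 gave 0.05. GENCODE M21 has an exon of Fars2 on the opposite strand that overlaps those of Nrn1, and the kits used do not mark strand.

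Bdnf encodes brain-derived neurotrophic factor, a secreted growth factor that acts through the receptor TrkB (chromosome 2, 109674700 to 109727043, plus strand). Levels in CFA replicates 1, 2 and 3 were 40.3, 59.8 and 59.0 CPM, and those in saline replicates 1, 2 and 3 were 39.5, 44.1 and 46.4 CPM. CFA replicates 2 and 3 lay above every saline library, and CFA replicate 1 lay among them. Bdnf had a log2 fold change of 0.29 ± 0.21 (SE; 95% interval -0.16 to 0.74), with an unadjusted p of 0.189 and an adjusted p of 1 (edgeR). That fold change was 0.19 without CFA replicate 2 and 0.45 without CFA replicate 1. Transcripts from its several starts are summed in these counts, and GENCODE M21 has the gene Gm45346 on the opposite strand over part of its exons.

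Inhba encodes the inhibin beta A subunit, of which activin A, a secreted ligand of the TGF-beta family, is built (chromosome 13, 16014475 to 16027211, plus strand). It was the least abundant of the 10, at 3.49, 2.56 and 3.08 CPM in CFA replicates 1, 2 and 3, against 5.64, 4.17 and 3.75 CPM in saline replicates 1, 2 and 3. These values rest on 42, 29 and 32 counts in CFA replicates 1, 2 and 3, and on 63, 45 and 37 counts in saline replicates 1, 2 and 3. Every CFA library was below every saline library. The fitted log2 fold change was -0.57 ± 0.51 (SE), and edgeR gave an unadjusted p of 0.284 and an adjusted p of 1. Its 95% interval, -1.67 to 0.53, was the widest of the 10. Without saline replicate 1 the log2 fold change was -0.38.

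Vgf encodes a precursor that is cut into neuropeptides and travels in dense-core vesicles (chromosome 5, 137030295 to 137033351, plus strand). Its level was 289, 265 and 314 CPM in CFA replicates 1, 2 and 3, and 192, 244 and 302 CPM in saline replicates 1, 2 and 3. Saline replicates 1 and 2 were below all CFA libraries, and saline replicate 3 was among them. Vgf had a log2 fold change of 0.23 ± 0.19 (SE; 95% interval -0.17 to 0.64), with an unadjusted p of 0.236 and an adjusted p of 1 (edgeR). The log2 value was 0.08 without saline replicate 1 (unadjusted p of 0.688) and 0.41 without saline replicate 3 (unadjusted p of 0.0281, adjusted p of 0.678).

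Scg2 encodes secretogranin II, a granin of dense-core vesicles and the precursor of secretoneurin (chromosome 1, 79434669 to 79440090, minus strand), and its promoter is one of those with a full CRE. It was at 217, 260 and 247 CPM in CFA replicates 1, 2 and 3, against 318, 266 and 286 CPM in saline replicates 1, 2 and 3. All CFA libraries were below all saline libraries, with 260 CPM in CFA replicate 2 next to 266 CPM in saline replicate 2. In the fit the log2 fold change was -0.26 ± 0.17 (SE; 95% interval -0.62 to 0.09), with an unadjusted p of 0.137 and an adjusted p of 1 (edgeR).

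Pcsk1 encodes prohormone convertase 1, which cuts peptide precursors, granins among them, in dense-core vesicles (chromosome 13, 75089987 to 75132498, plus strand). Levels were 62.9, 43.8 and 68.6 CPM in CFA replicates 1, 2 and 3, against 69.1, 60.2 and 71.9 CPM in saline replicates 1, 2 and 3. CFA replicate 2 was the lowest library and the other 5 lay close together. Pcsk1 had a log2 fold change of -0.20 ± 0.21 (SE; 95% interval -0.64 to 0.24), with an unadjusted p of 0.353 and an adjusted p of 1 (edgeR). The log2 value was -0.03 without CFA replicate 2 and -0.32 without CFA replicate 3.

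The intervals give the size of a difference under edgeR's fit, which moderates each gene's spread toward that of other genes of like level. The 95% interval included no change for all 10 genes. For 9 of the 10 genes it lay wholly within fold changes of 0.5 to 2, and the exception was Inhba, at 0.315 to 1.44. For Scg2 the interval was a fold of 0.65 to 1.07, and for Arc 0.748 to 1.73. Arc and Npas4 had within-group SDs of log2 CPM of 0.56 and 0.63, above 100% and 99.7% of genes of like level. The intervals of Arc and Npas4 may therefore be too narrow, and intervals from their own spread alone were not computed.

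**Figure D3:**
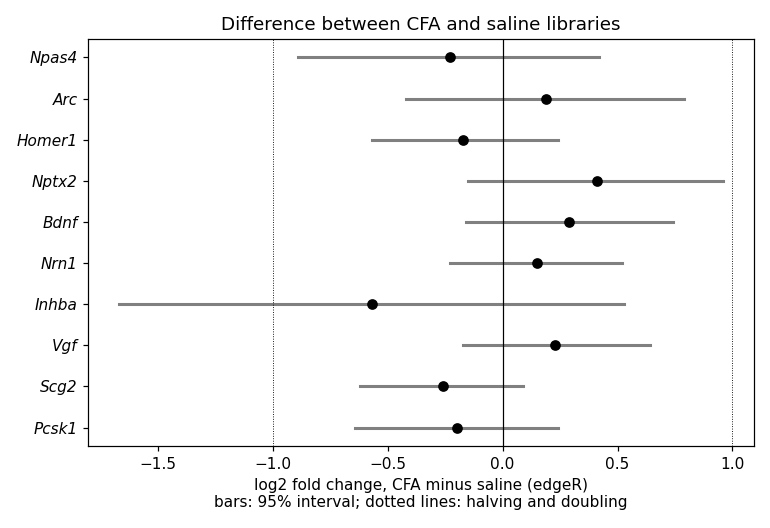
Log2 fold change (CFA minus saline) of each effector from edgeR's quasi-likelihood fit (points) with its 95% interval (bars), ordered by role. All 10 intervals include 0, and Inhba has the widest, -1.67 to 0.53.

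Npas4 varied widely between libraries of both groups, and Arc between the CFA libraries. The coefficient of variation of Npas4 was 42.9% in CFA and 35.4% in saline libraries. That of Arc was 48.9% in CFA and 11.4% in saline libraries, and in saline libraries Nptx2 (33.0%), Vgf (22.3%), Inhba (21.9%), Homer1 (17.8%) and Nrn1 (12.2%) exceeded it. Pooled over both groups, the SD of log2 CPM within groups was 0.56 for Arc and 0.63 for Npas4. It was larger than in all 156 genes tested whose mean log2 CPM lay within 0.5 of that of Arc, and larger than in 1989 of 1994 such genes for Npas4. The other 8 effectors had SDs of 0.13 (Scg2) to 0.37 (Nptx2), above 5.85% (Inhba) to 75.3% (Nptx2) of genes at a like level. Among 16 tested activity-regulated transcription factor genes, a list without Npas4, the spread was also wide, with 11 above 90% of genes at a like level, and Fos had an SD of 0.57. For 5 of the 10 effectors the difference between the group means of log2 CPM was smaller than the SD within groups.

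**Figure D4:**
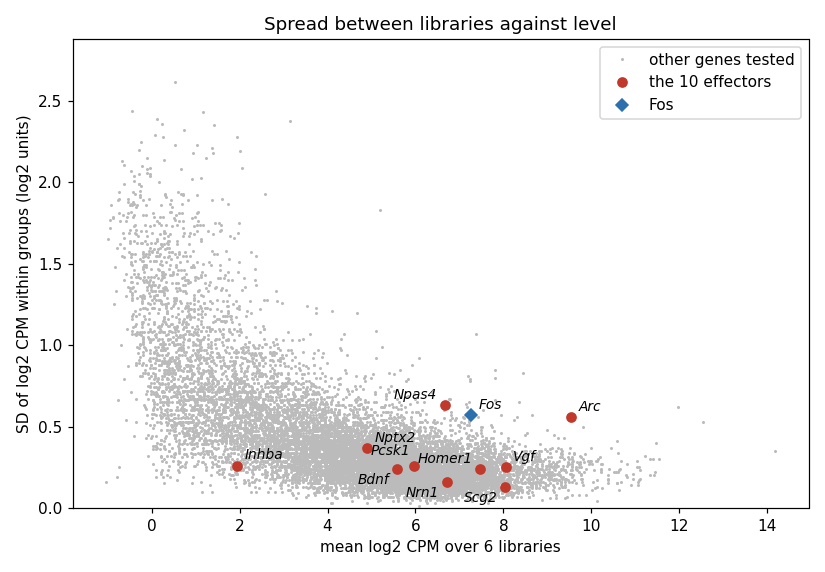
SD of log2 CPM within groups (log2 units) against mean log2 CPM over the 6 libraries for all genes tested (grey), the 10 effectors (red) and Fos (blue). Arc (SD 0.56) and Npas4 (SD 0.63) stand above the bulk of genes at their level, as does Fos (SD 0.57), while the other 8 effectors lie within it.

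The effectors did not rank the libraries in one order. CFA replicate 1 was the lowest library for Arc, Homer1 and Scg2, and it was also the lowest for 11 of the 16 transcription factor genes, Fos included. Fos was at 84.9, 220 and 169 CPM in CFA replicates 1, 2 and 3, against 133, 220 and 148 CPM in saline replicates 1, 2 and 3. Saline replicate 1 was the lowest saline library for Arc, Npas4, Bdnf, Homer1, Vgf and Fos. CFA replicate 2, the highest for Arc, Bdnf and Nrn1, was the lowest for Inhba and Pcsk1. The median deviation of the 10 effectors from their own means was -0.05, 0.12 and 0.08 on the log2 scale in CFA replicates 1, 2 and 3, and -0.22, 0.01 and 0.11 in saline replicates 1, 2 and 3. Their mean log2 CPM was 6.34, 6.58 and 6.49 in CFA replicates 1, 2 and 3, against 6.40, 6.59 and 6.51 in saline replicates 1, 2 and 3, with replicate 1 lowest and replicate 2 highest in each group.

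**Figure D5:**
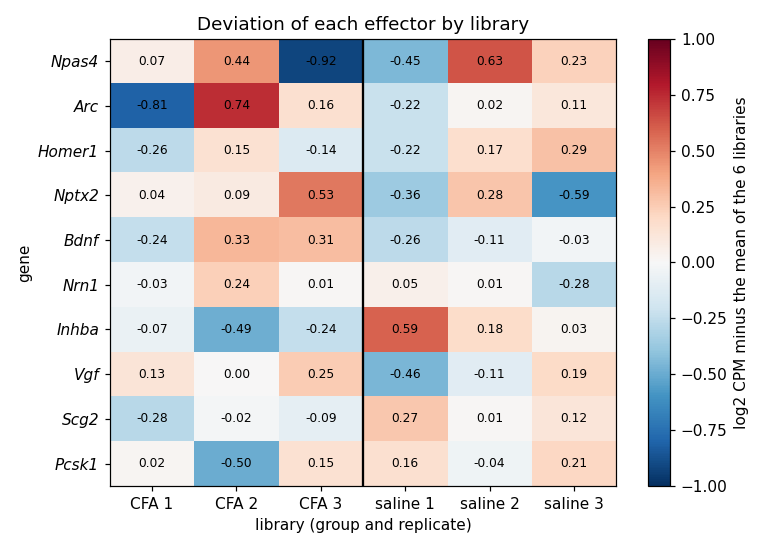
Deviation of each effector's log2 CPM from its mean over the 6 libraries, with CFA libraries left and saline libraries right of the black line. Arc is at -0.81 in CFA replicate 1 and 0.74 in CFA replicate 2, and Npas4 is at -0.92 in CFA replicate 3 and 0.63 in saline replicate 2.

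Other genes of the same programme gave no calls either. Of 17 activity-regulated transcription factor genes 16 were tested, and 0 were called in either direction. Of the 16, 13 had a negative log2 fold change (median -0.197), where all genes tested divided into 6809 negative and 6751 positive. CFA replicate 1 was the lowest library for 11 of the 16, and the part of this in the signs was not tested. The mean log2 CPM of the 17 was 4.24, 5.14 and 5.07 in CFA replicates 1, 2 and 3. In saline replicates 1, 2 and 3 that mean was 4.58, 5.23 and 5.22. The nuclear receptor gene Nr4a3 averaged 14.1 ± 1.89 CPM in CFA libraries and 21.8 ± 12.2 CPM in saline libraries (SD, n = 3 each), and Nr4a2 averaged 17.9 ± 9.96 CPM in CFA libraries and 29.1 ± 15.8 CPM in saline libraries. On the positive side Egr3 and Fosl2 had log2 fold changes of 0.06 and 0.15. Of 38 other activity-regulated effectors 35 were tested and 0 were called, with 18 positive, 17 negative and a median of 0.003. In that list 3 genes had an unadjusted p under 0.05, Rem2, Pmepa1 and Tac1, all negative, against 254 lower and 183 higher genes (3.22%) of all 13560 tested. Rem2, a GTPase that restrains calcium channels, was at 15.8, 14.5 and 13.8 CPM in CFA replicates 1, 2 and 3, against 25.8, 28.1 and 22.1 CPM in saline replicates 1, 2 and 3, without overlap. Its log2 fold change was -0.78 ± 0.24 (SE), and edgeR gave an unadjusted p of 0.0052 and an adjusted p of 1. Pmepa1, a feedback inhibitor of TGF-beta signalling, averaged 23.1 ± 4.73 CPM in CFA libraries and 42.5 ± 18.7 CPM in saline libraries, with an unadjusted p of 0.0127 and an adjusted p of 1 (edgeR). Tac1, the tachykinin precursor, is also a striatal marker, averaged 11.9 ± 4.88 CPM in CFA libraries and 24.5 ± 20.9 CPM in saline libraries, and was named after its values were seen. The positive genes with the smallest p were Adcyap1, the PACAP precursor, and Trib1, with log2 fold changes of 0.28 and 0.36.

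The machinery that packs and cuts secreted precursors was measured in 22 genes, all tested, with 0 called, 7 positive and 15 negative, and the median log2 fold change was -0.031. Pcsk2, the other main neuronal prohormone convertase, was at 594, 571 and 685 CPM in CFA replicates 1, 2 and 3, against 481, 571 and 476 CPM in saline replicates 1, 2 and 3. Its groups were apart by less than the digits given, with a log2 fold change of 0.28 ± 0.17 (SE), an unadjusted p of 0.124 and an adjusted p of 1 (edgeR). Ptprn, a dense-core vesicle membrane protein, averaged 694 ± 125 CPM in CFA libraries and 548 ± 56.2 CPM in saline libraries, with an unadjusted p of 0.0837 and an adjusted p of 1 (edgeR). Baiap3 and Pcsk6 had log2 fold changes of -1.04 ± 0.67 and -0.96 ± 0.99 (SE) at means of 5.65 CPM or less in both groups.

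Receptors and binding partners of the effectors were listed as 36 genes, of which 32 were tested and 0 called, with 16 positive and 16 negative, and the median log2 fold change was -0.001. Smad3, which carries activin and TGF-beta signals, averaged 34.0 ± 8.55 CPM in CFA libraries and 24.9 ± 0.603 CPM in saline libraries, with an unadjusted p of 0.0758 and an adjusted p of 1 (edgeR). Arnt2, the partner with which Npas4 binds DNA, averaged 129 ± 17.2 CPM in CFA libraries and 104 ± 18.8 CPM in saline libraries, with an unadjusted p of 0.11 and an adjusted p of 1 (edgeR). Smad4 and Shank1 had log2 fold changes of -0.52 ± 0.31 and -0.33 ± 0.25 (SE).

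Markers of other cell types were present beside these transcripts. Summed over 7 astrocyte markers the level was 207 to 292 CPM in CFA libraries and 179 to 190 CPM in saline libraries, without overlap. Aldoc made up most of that sum, and 4 of the 7 markers had a positive and 3 a negative log2 fold change. Of the 7, 3 had an unadjusted p under 0.05 in edgeR's test (Aldoc, Slc1a3 and Fgfr3), against 3.22% of all genes tested. Each of these 3 was higher in CFA without overlap, where 7.51% of all genes tested did not overlap, and 0 of the 7 were called. The mean log2 CPM of the list overlapped, with 3.47 in CFA replicate 3 and 3.64 in saline replicate 3. The sum over 5 oligodendrocyte precursor markers was 26.0 to 38.8 CPM in CFA libraries and 16.0 to 22.9 CPM in saline libraries, also without overlap, with Pdgfra at 0 counts in saline replicate 2 and Olig2 and Gpr17 at 0 counts in saline replicate 3. Olig1 made up most of this sum, while Cspg4 went the other way, at a mean of 1.75 CPM in CFA libraries and 3.77 CPM in saline libraries, also without overlap. Of 4 precursor markers tested, 2 had an unadjusted p under 0.05 in edgeR's test, Olig1 and Gpr17, each higher in CFA. Among all genes tested 3.22% were under it, and 0 of the 4 markers were called. The 8 microglia markers summed to 89.2 to 138 CPM in CFA libraries and 69.8 to 104 CPM in saline libraries, with Itgam at 0 counts in saline replicates 1 and 2. For the 8 striatal markers the sum was 237 to 391 CPM in CFA and 332 to 806 CPM in saline libraries, with Adora2a at 0 counts in CFA replicate 3. All 7 striatal markers tested, Tac1 among them, had a negative log2 fold change (median -1.006), and 5 of the 7 had an unadjusted p under 0.05 (adjusted p of 1 for each in edgeR's test), against 3.22% of all genes tested. The 8 interneuron markers summed to 115 to 186 CPM in CFA and 119 to 176 CPM in saline libraries, and the 6 oligodendrocyte markers to 300.0 to 464 CPM in CFA and 336 to 412 CPM in saline libraries. The 9 corticothalamic markers of the sorted class summed to 894 to 996 CPM in CFA and 865 to 1200.0 CPM in saline libraries, with 0 of them at 0 counts. The 6 vascular markers summed to 12.3 CPM or less, with Cldn5 and Flt1 each at 0 counts in 5 of 6 libraries. The part of these cells in the levels of the effectors was not tested.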

How the data were processed

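RNA of sorted nuclei was measured in 6 libraries, grouped by the sample titles into 3 CFA and 3 saline libraries. The authors deposited 1 table that holds, per the file headers, raw counts per gene with exon intervals and exon length. The submitters' processing notes name featureCounts 2.0.1, HISAT2 2.2.1, edgeR 3.32.1, SAMtools 1.13 and Trim Galore, and the build mm10. Per the labels' protocols, cDNA came from the Smart-seq V4 kit and libraries from Nextera XT, which do not mark strand. How strand and multi-mapping reads were handled is not given in the sources used here.

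Counts were tested with edgeR 4.0.16 (R 4.3.3): TMM, filterByExpr, quasi-likelihood test, treatment as the only term, Benjamini-Hochberg over 13560 genes, threshold 0.05. Standard errors and 95% intervals were derived from the F statistic, and the prior count for log2 CPM was 2. The procedure was tested on simulated data. No member shared exons with another gene model of the deposited table. No 2 libraries agreed within sampling noise (lowest chi-square per degree of freedom 17.2). Alternatives were RLE and library-size scaling, 2 filters, DESeq2 1.42.0, limma-voom (limma 3.58.1), a replicate block and leaving out each library.

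The members and gene lists were chosen with earlier results of these data known. Beside the members, genes were named as anchors of the sort and of activity (Foxp2, Slc17a7, Gad1, Fos), as the 2 positive and 2 negative genes of smallest p in each of 4 gene lists, and as the 3 genes most like the member with the smallest p. Promoters were taken from RefSeq (GRCm38.p6), and gene neighbours from GENCODE M21.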

Additional observations from a re-analysis of the deposited data

How the results depend on the processing

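Of 129 recomputed log2 fold changes of the 10 effectors, 126 kept their sign and 0 had an adjusted p under 0.05 (smallest 0.678, Vgf without saline replicate 3). Leaving out a library moved Arc over -0.22 to 0.50 and Npas4 over -0.54 to 0.07, the only genes whose sign turned under any alternative run, and the cause was not tested. At an unadjusted p under 0.05 there were 3 such values: Arc without CFA replicate 1 (unadjusted p of 0.0494, adjusted p of 1), Nptx2 without saline replicate 2 and Vgf without saline replicate 3 (edgeR's quasi-likelihood test in each). The median over the effectors was 0.143 with at least 5 CPM required in at least 3 libraries, which drops Inhba, and -0.125 to 0.12 when a library was left out.

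Over all genes the quasi-likelihood test called 0 (437 at an unadjusted p under 0.05, smallest adjusted p 0.91) and limma-voom 0 (469). Without a filter on low counts 9 genes were called, with DESeq2 5, and with the replicate block 6, none of them an effector. Leaving out a library gave 0 to 5 calls, the 5 without saline replicate 3. Across all genes tested, same-numbered libraries did not deviate together (r of -0.0793, 0.0249 and -0.0692 for replicates 1, 2 and 3), although the mean level of the effectors took the same order of replicate numbers in both groups, and the replicate block describes shared numbers only. Depth limits Inhba most, at 29 to 63 counts per library.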

Other observations

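The granin-like precursors Vgf and Scg2 had log2 fold changes of opposite sign, and their ratio within each library was computed after these values were seen. The ratio of Vgf to Scg2 CPM was 1.33, 1.02 and 1.27 in CFA replicates 1, 2 and 3, against 0.605, 0.919 and 1.05 in saline replicates 1, 2 and 3. CFA replicate 2 lay below saline replicate 3, so the groups overlapped, and the ratio was not tested.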
